A study of Mus musculus with 12 samples.

Results

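The genotype by exercise interaction in mouse cerebellum is the response to voluntary wheel running in SCA1 mice minus the response in WT mice, taken here gene by gene and over lists of cell type and pathway genes. All 12 samples of the series entered, with 3 WT and 3 SCA1 mice kept sedentary and as many of each given exercise. SCA1 mice were heterozygous for the Atxn1154Q/2Q knock-in, a name that joins the gene symbol to the repeat lengths of its expanded and normal alleles, so that the gene's own promoter drives the expanded allele in every cell type, and WT mice were C57BL/6J littermates. The exercise mice had a wheel in the cage from 4 to 16 weeks of age and lived alone, whereas the sedentary mice lived in groups. Wheels were taken out before behavioral testing. Both sexes were studied, and the labels give no sex for single mice. After the behavioral tests the mice were perfused, and RNA from the cerebellum of 1 side of the brain was sequenced after removal of ribosomal RNA. Running and housing cannot be told apart in these groups.

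Spinocerebellar ataxia type 1 is caused by a lengthened glutamine repeat in ataxin-1, a nuclear protein that binds the transcriptional repressor Capicua. The Purkinje cell, the output neuron of the cerebellar cortex, is the cell type best known to suffer. Purkinje cells receive parallel fibers from granule cells and signal through the metabotropic glutamate receptor mGluR1 and calcium stores. An interaction is positive where exercise raised a transcript more, or lowered it less, in SCA1 than in WT mice. An opposite response is the narrower case in which the 2 genotypes moved in contrary directions.

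Libraries held 20556802 to 32127508 counted read pairs, and 39.3% to 58.7% of read pairs fell in no gene on the counted strand. Mice are named by group and by the number in their label, in the order WT sedentary 116, 117 and 192, WT exercise 121, 197 and 201, SCA1 sedentary 16, 194 and 195, and SCA1 exercise 55, 122 and 198, and values are given in that order throughout. SCA1 sedentary 16 and SCA1 exercise 55 stood apart: 6.38% and 6.33% of their read pairs mapped to several places, against 2.08% to 3.46% in the other 10 libraries. The brainstem gene Hoxb5 was counted at 8.33 and 9.92 CPM (counts scaled to 1e+06 per library) in them and at 0.97 CPM or less in the others. The study's methods state that 2 RNA samples had an integrity number not above 8 and an adjusted library preparation; the study marks them in a supplementary table that was not used here. Results are therefore also given without mice 16 and 55, whose groups then hold 2 mice each. Xist was high, and the 4 chromosome Y genes Ddx3y, Eif2s3y, Kdm5d and Uty near 0, in WT exercise 201, SCA1 sedentary 194, SCA1 exercise 55 and SCA1 exercise 122. No WT sedentary mouse was among them, so by these genes sex was spread unevenly over the groups. With the mean log2 CPM of the chromosome Y genes as a covariate, 0 genes passed the test of the interaction given below. Atxn1, the gene with the repeat, was counted at 148, 148 and 162 CPM in the WT sedentary mice, 159, 169.8 and 169.8 in the WT exercise mice, 162, 161 and 193 in the SCA1 sedentary mice and 147, 193 and 184 in the SCA1 exercise mice, and its interaction was -0.10 ± 0.16 (SE).

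No gene passed the test of the interaction. Of 20341 genes, 0 (0%) had a Benjamini-Hochberg adjusted p under 0.05 with an absolute log2 fold change (log2FC) over 0.5 in edgeR's quasi-likelihood test, and the lowest adjusted p was 0.882. At an unadjusted p under 0.05, edgeR gave 769 genes (3.78%), of which 320 (1.57%) were positive and 449 (2.21%) negative, DESeq2 gave 786 and limma voom with sample weights 3692. Adjusted, DESeq2 called 2 genes (0.00984% of those it tested) and limma voom 14 (0.0688%). The terms of the interaction likewise gave 0 calls each in edgeR, with 955 genes (4.69%) at an unadjusted p under 0.05 for exercise in WT mice and 441 (2.17%) for exercise in SCA1 mice. DESeq2 called 65 and 1, and limma voom 92 and 0.

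The responses of the genotypes were only weakly alike across genes. Across the 20341 genes, which are not independent replicates, Pearson's r of the WT and SCA1 log2FC was 0.13 and Spearman's rho was 0.079, and 46.2% of genes had contrary signs. The spread of the responses over genes was an SD of 0.44 in WT and 0.32 in SCA1 mice. Of the 25 genes with an unadjusted p under 0.05 in both genotypes, 20 went contrary ways and 5 the same way. With 4.69% of genes at that limit in WT and 2.17% in SCA1 mice, some reach it in both without any response. Neither the 25 nor their split was tested. Among the 769 genes, 371 had an unadjusted p under 0.05 for exercise in WT mice only, 150 in SCA1 mice only, 20 in both and 228 in neither. The 371 comprised 247 genes higher and 124 lower in exercised WT mice, and the 150 comprised 85 higher and 65 lower in exercised SCA1 mice.

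Opposite responses were counted where the unadjusted interaction p was under 0.05 and the 3 exercise mice did not overlap the 3 sedentary mice of either genotype, above them in one and below them in the other. There were 34 such genes (0.167% of those tested) with higher levels in exercised SCA1 and lower levels in exercised WT mice, and 19 (0.0934%) with the reverse. Without the limit on p, the counts were 41 and 20, beside 33 genes above and 30 below in both genotypes. If exercise labels were shuffled within genotypes, a gene would separate in contrary directions, either way round, in a share of 0.005 of the 400 arrangements. The counts lie below that share of the genes tested, so separation alone does not set these genes apart. The plot of responses shows the opposite genes in the upper left and lower right, some within and some outside the dense cloud of genes around 0. These genes were picked by the values given below, so those values are descriptions. Their adjusted p in edgeR's quasi-likelihood test was 0.9999, apart from Gm15383 at 0.882.

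**Figure D1:**
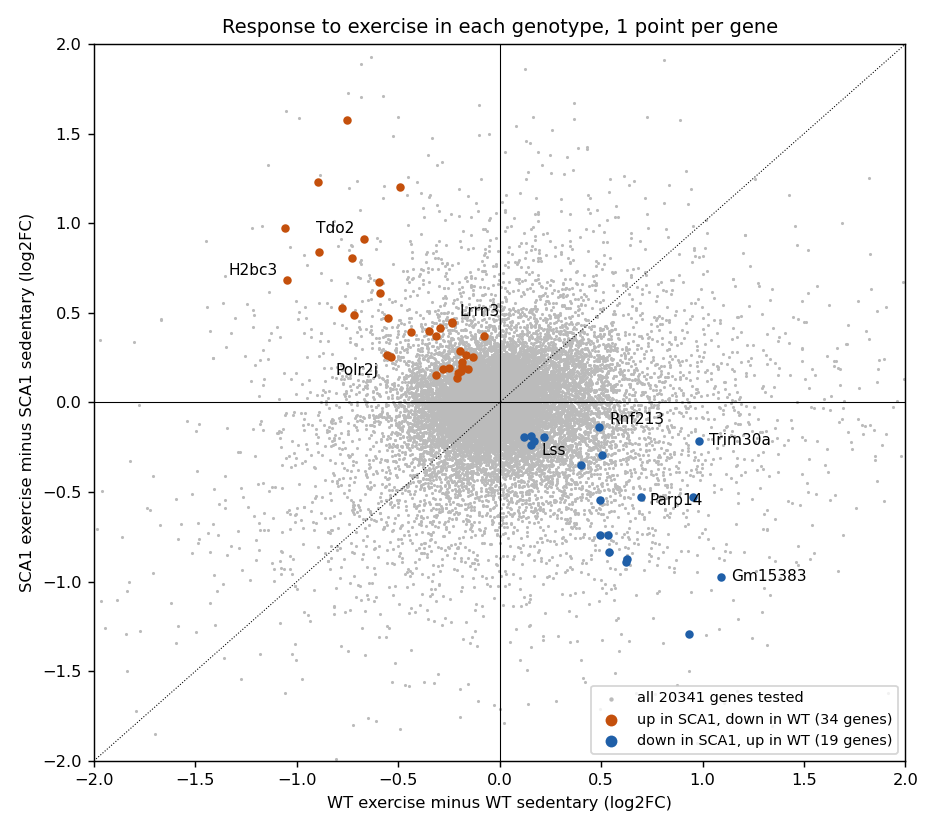
Each point is 1 gene, with the log2FC of exercise against sedentary in WT mice on the x axis and in SCA1 mice on the y axis (n = 3 mice per group); the dotted line marks equal responses. Orange points are the 34 genes higher in exercised SCA1 and lower in exercised WT mice, blue points the 19 with the reverse, and 160 genes lie outside the axes, which end at 2.

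The genes higher with exercise in SCA1 and lower in WT mice began, in order of p, with Polr2j. Polr2j, a subunit of RNA polymerase II (chr5:136145485-136158214 on the plus strand, GRCm39), was counted at 16.4, 14.3 and 14.3 CPM in the WT sedentary mice, 9.95, 10.97 and 9.74 in the WT exercise mice, 10.7, 11.7 and 11.2 in the SCA1 sedentary mice and 12.6, 12.6 and 15.05 in the SCA1 exercise mice. Exercised WT and sedentary SCA1 mice were both low, and every sedentary WT and every exercised SCA1 mouse lay above them. Its log2FC was -0.55 in WT and 0.26 in SCA1 mice, an interaction of 0.82 ± 0.18 (SE). Polr2i, another subunit of the same enzyme (chr7:29931325-29932816), stood at 11.4, 7.61 and 11.1 CPM in the WT sedentary mice, 7.01, 6.68 and 7.07 in the WT exercise mice, 7.34, 8.32 and 7.70 in the SCA1 sedentary mice and 8.37, 8.88 and 10.55 in the SCA1 exercise mice. Its interaction was 0.79 ± 0.25 (SE). Med21, a Mediator subunit, and Ints14, an Integrator subunit, met the same rule with interactions of 0.47 and 0.43; they fell outside the 12 genes with the lowest p and were picked after their values were seen.

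H2bc3, a core histone H2B, and H1f5, a linker histone, also met the rule. H2bc3 was counted at 3.57, 2.99 and 3.62 CPM in the WT sedentary mice, 2.15, 1.002 and 1.78 in the WT exercise mice, 2.05, 1.83 and 1.68 in the SCA1 sedentary mice and 3.81, 2.17 and 2.96 in the SCA1 exercise mice, an interaction of 1.73 ± 0.41 (SE). H1f5 was at 10.3, 6.41 and 7.02 CPM in the WT sedentary mice, 6.396, 3.96 and 5.82 in the WT exercise mice, 6.18, 5.35 and 5.68 in the SCA1 sedentary mice and 6.91, 7.96 and 9.05 in the SCA1 exercise mice, an interaction of 1.03 ± 0.32 (SE). Histone genes have near-identical copies in the genome, so reads could be split between them. In both genes every sedentary WT mouse lay above every sedentary SCA1 mouse, and every exercised WT mouse lay below every exercised SCA1 mouse. Some of these gaps were slight. The nearest exercised mice of the genotypes had 2.15 and 2.17 CPM of H2bc3, and the nearest sedentary and exercised WT mice 6.41 and 6.396 CPM of H1f5.

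Lrrn3, Lingo3 and Tuba8 were counted at higher levels than the genes above. Lrrn3, a leucine-rich repeat protein of neurons, was counted at 49.3, 55.9 and 49.4 CPM in the WT sedentary mice, 46.6, 44.02 and 40.7 in the WT exercise mice, 43.5, 35.1 and 38.5 in the SCA1 sedentary mice and 48.5, 61.9 and 48.8 in the SCA1 exercise mice. Exercised SCA1 mice overlapped sedentary WT mice, and exercised WT mice overlapped sedentary SCA1 mice, with an interaction of 0.68 ± 0.17 (SE). Lingo3, a membrane protein of the LINGO family, had 101, 92.2 and 91.6 CPM in the WT sedentary mice, 82.8, 85.9 and 80.3 in the WT exercise mice, 64.7, 68.9 and 74.5 in the SCA1 sedentary mice and 81.6, 77.6 and 76.2 in the SCA1 exercise mice, and sedentary SCA1 mice were below all others. Tuba8, an alpha tubulin, had 42.4, 38.2 and 37.02 CPM in the WT sedentary mice, 33.1, 33.7 and 33.1 in the WT exercise mice, 25.7, 25.1 and 20.4 in the SCA1 sedentary mice and 42.1, 27.6 and 27.4 in the SCA1 exercise mice, and its highest SCA1 exercise value was that of mouse 55. Without mice 16 and 55 the interaction of Tuba8 was 0.50, against 0.69 with them.

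The other named genes of this direction were Tdo2, an enzyme of tryptophan breakdown, Rps27l, a ribosomal protein S27 relative, Lamtor3, a scaffold of the lysosomal Ragulator complex, and Setmar, a histone methyltransferase. Tdo2 was at 4.23, 3.25 and 3.40 CPM in the WT sedentary mice, 3.11, 1.67 and 2.06 in the WT exercise mice, 1.24, 1.87 and 1.54 in the SCA1 sedentary mice and 3.14, 3.46 and 2.14 in the SCA1 exercise mice, an interaction of 1.59 ± 0.41 (SE). Its log2FC was -0.67 in WT and 0.91 in SCA1 mice. Interactions were 1.20 ± 0.33 (SE) for Rps27l, 0.44 ± 0.14 (SE) for Lamtor3 and 0.83 ± 0.26 (SE) for Setmar. Of the 34 genes, 26 were protein-coding, 7 were long noncoding RNAs and 1 was of another kind, and interactions ran from 0.34 to 2.33 with a median of 0.73. The coding genes also included Casq2, a calcium-binding protein of the sarcoplasmic and endoplasmic reticulum, Elp6, an Elongator subunit, Riok2, a kinase of ribosome assembly, and Ppid, a cyclophilin, named after their values were seen, with interactions of 0.41, 0.48, 0.35 and 0.34.

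Of the genes lower with exercise in SCA1 and higher in WT mice, Rnf213, a large ubiquitin ligase known to be induced by interferon (chr11:119283926-119378244, GRCm39), had the lowest p of the coding genes that met the rule and was counted at 39.2, 41.2 and 43.3 CPM in the WT sedentary mice, 63.1, 57.1 and 53.6 in the WT exercise mice, 54.98, 57.8 and 59.9 in the SCA1 sedentary mice and 53.9, 49 and 53.9 in the SCA1 exercise mice. The WT sedentary mice lay below all 9 other mice. Its log2FC was 0.49 in WT and -0.14 in SCA1 mice, an interaction of -0.63 ± 0.13 (SE). Parp14, an ADP-ribosyltransferase that interferon also induces (chr16:35653231-35692003), was counted at 3.72, 2.82 and 4.08 CPM in the WT sedentary mice, 6.35, 6.80 and 4.08 in the WT exercise mice, 6.36, 6.58 and 5.004 in the SCA1 sedentary mice and 3.81, 4.38 and 4.24 in the SCA1 exercise mice, and exercised WT mice spanned the range of sedentary SCA1 mice. The nearest pair of sedentary and exercised WT mice were both at 4.08 CPM, so the separation in WT mice was slight. Its interaction was -1.23 ± 0.32 (SE). Trim30a, a TRIM family protein likewise known as interferon-induced (chr7:104058232-104114407), was counted at 2.08, 1.88 and 1.70 CPM in the WT sedentary mice, 4.95, 3.46 and 2.79 in the WT exercise mice, 2.97, 3.06 and 3.37 in the SCA1 sedentary mice and 2.66, 2.75 and 2.66 in the SCA1 exercise mice. Its interaction of -1.20 ± 0.32 (SE) lay mostly in WT mice, with a log2FC of 0.98 against -0.22 in SCA1 mice; it has close paralogs, between which reads could be split. These genes were picked by p, and no share of interferon-induced genes was tested.

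Afap1 and Filip1, which bind actin filaments and filamin, Lss, the lanosterol synthase of cholesterol synthesis, and Nrg3, a ligand of the receptor ErbB4, shared this direction. Afap1 was counted at 43.7, 46.9 and 45.96 CPM in the WT sedentary mice, 51.1, 48.6 and 53.8 in the WT exercise mice, 57.8, 58.7 and 62.3 in the SCA1 sedentary mice and 53.5, 53 and 47.4 in the SCA1 exercise mice, with sedentary SCA1 mice highest. Lss was at 47.2, 48.9 and 47.7 CPM in the WT sedentary mice, 51.96, 53.03 and 54.8 in the WT exercise mice, 56.8, 58.7 and 57.9 in the SCA1 sedentary mice and 51.9, 47.7 and 52.5 in the SCA1 exercise mice, again with sedentary SCA1 mice highest. Nrg3 was at 30.9, 32.1 and 32.4 CPM in the WT sedentary mice, 32.9, 36.8 and 33.8 in the WT exercise mice, 50.3, 46.8 and 48.9 in the SCA1 sedentary mice and 39.8, 43.6 and 44.2 in the SCA1 exercise mice, so that every SCA1 mouse lay above every WT mouse and exercise narrowed the gap from both sides. Interactions were -0.39 ± 0.12 (SE) for Afap1, -0.80 ± 0.26 (SE) for Filip1, -0.34 ± 0.11 (SE) for Lss and -0.31 ± 0.13 (SE) for Nrg3, and -0.75 ± 0.29 (SE) and -0.39 ± 0.16 (SE) for Krbox5, a KRAB box gene, and Mcph1, which encodes microcephalin. Of the 19 genes, 10 were protein-coding, 5 were long noncoding RNAs and 4 were pseudogenes or unclassified, with interactions from -0.31 to -2.22 and a median of -1.20.

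**Figure D2:**
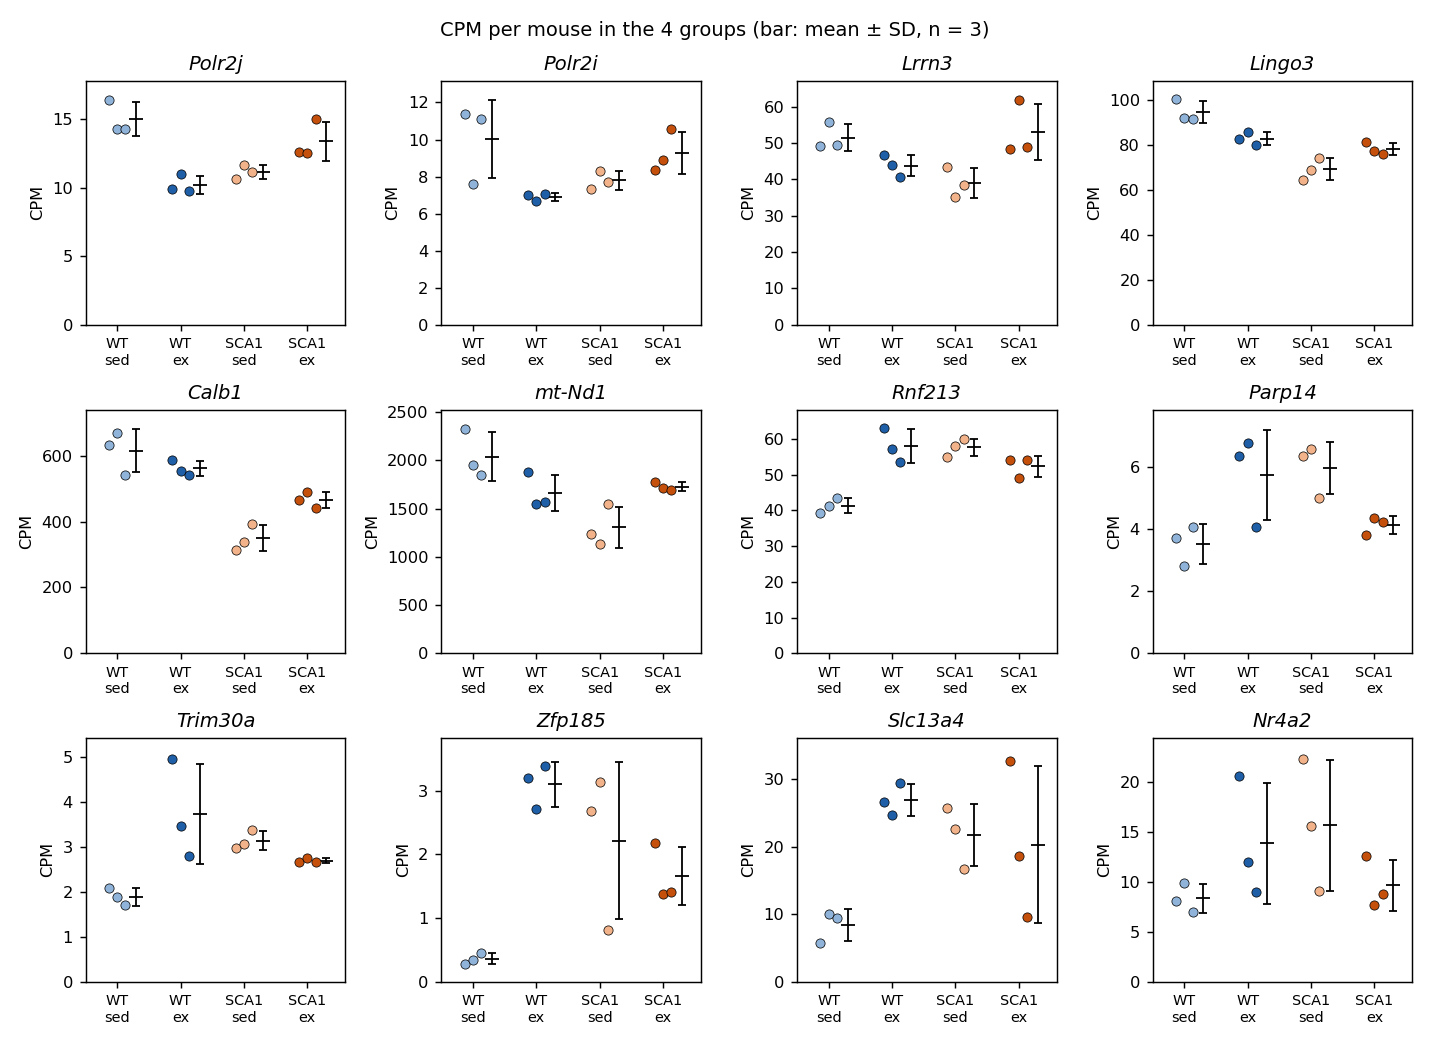
CPM of 12 genes in each mouse (points) by group, with mean ± SD (bars, n = 3); y axes start at 0. Polr2j, Polr2i, Lrrn3 and Lingo3 are lower in exercised WT and higher in exercised SCA1 mice without overlap, Rnf213, Parp14 and Trim30a the reverse, whereas Zfp185, Slc13a4 and Nr4a2 overlap within SCA1 mice and Calb1 and mt-Nd1 overlap within WT mice.

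Promoters are shown for Polr2j and Rnf213, the coding genes with the lowest p in each direction, and for Trim30a, picked after the values were seen as another gene known to be induced by interferon. They run from 250 bases before to 50 bases after the transcription start, come from a RefSeq table of the build GRCm38.p6, and are written 5′ to 3′ on the gene's strand. The coordinates are those of the exact match of each sequence in GRCm39. The Rnf213 window belongs to a RefSeq start that lies upstream of the GENCODE gene given above and outside it, so the window around the GENCODE start was not searched. Of the 21 named genes, 15 had a promoter in the RefSeq table. The interferon-stimulated response element core GAAANNGAA was searched on both strands and is in capitals; it is in 8.56% of all 32851 promoters of this length. In Trim30a it lies from 35 to 27 bases before the start, on the reverse strand, and both listed Trim30a promoters held it. The letters are not in the Rnf213 and Polr2j windows printed here.
Polr2j, chr5:136145295-136145594, plus strand: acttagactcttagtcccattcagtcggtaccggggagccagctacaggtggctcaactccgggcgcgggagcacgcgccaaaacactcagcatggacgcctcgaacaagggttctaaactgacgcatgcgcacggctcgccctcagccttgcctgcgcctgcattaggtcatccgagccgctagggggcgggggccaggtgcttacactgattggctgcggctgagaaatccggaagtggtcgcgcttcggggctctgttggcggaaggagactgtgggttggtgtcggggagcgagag
Rnf213, chr11:119280675-119280974, plus strand: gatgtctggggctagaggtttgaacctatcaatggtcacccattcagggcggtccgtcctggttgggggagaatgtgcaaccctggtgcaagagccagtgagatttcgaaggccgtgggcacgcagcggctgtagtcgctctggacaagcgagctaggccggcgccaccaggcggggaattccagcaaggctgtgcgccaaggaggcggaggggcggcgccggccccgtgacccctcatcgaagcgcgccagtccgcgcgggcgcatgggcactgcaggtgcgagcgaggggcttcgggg
Trim30a, chr7:104114351-104114650, minus strand: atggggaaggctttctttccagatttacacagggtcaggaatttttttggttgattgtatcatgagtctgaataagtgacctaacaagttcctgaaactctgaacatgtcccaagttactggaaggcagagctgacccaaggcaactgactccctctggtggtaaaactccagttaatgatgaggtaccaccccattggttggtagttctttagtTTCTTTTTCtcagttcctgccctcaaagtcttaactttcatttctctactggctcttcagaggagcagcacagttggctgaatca
Of the named genes, 1 of 9 with a promoter in the first direction (H1f5) and 1 of 6 in the reverse (Trim30a) held the element. The Capicua octamers TGAATGAA and TGAATGGA (1.30% and 1.21% of all promoters) and the cyclic AMP response element TGACGTCA (1.79%), searched on both strands, were in none of these windows. The octamers share their first letters, and the cyclic AMP element is its own reverse complement.

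The genes called by DESeq2 or limma voom were mostly of another kind, with exercised WT mice above sedentary WT mice and SCA1 mice overlapping. Zfp185, a LIM-domain protein of the actin cytoskeleton on chromosome X, was called by DESeq2 (adjusted p = 0.0013) and by limma voom. It was counted at 0.284, 0.342 and 0.453 CPM in the WT sedentary mice, 3.20, 2.71 and 3.39 in the WT exercise mice, 2.68, 3.14 and 0.818 in the SCA1 sedentary mice and 2.18, 1.38 and 1.41 in the SCA1 exercise mice, so that WT sedentary mice lay below all others and SCA1 mice overlapped. Its log2FC was 3.10 in WT and -0.42 in SCA1 mice. Gm15383, a processed pseudogene whose reads may belong to its parent gene, was called by DESeq2 alone (adjusted p = 0.0039) and met the opposite-response rule, at 1.10, 1.37 and 1.66 CPM in the WT sedentary mice, 3.42, 2.38 and 2.99 in the WT exercise mice, 3.35, 2.59 and 3.56 in the SCA1 sedentary mice and 1.75, 1.79 and 1.29 in the SCA1 exercise mice. The other 13 genes called by limma voom, named after their values were seen, all had negative interactions. They included the matrix genes Aebp1, Podn and Tnxb, the retinol receptor Stra6 and the sulfate transporter Slc13a4. Slc13a4 was counted at 5.68, 10.04 and 9.43 CPM in the WT sedentary mice, 26.6, 24.7 and 29.4 in the WT exercise mice, 25.7, 22.6 and 16.7 in the SCA1 sedentary mice and 32.7, 18.6 and 9.60 in the SCA1 exercise mice. Exercised WT mice lay above sedentary WT mice in all 13, and SCA1 mice overlapped in each.

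Purkinje cell markers were the only one of 36 lists whose level separated exercised from sedentary mice in both genotypes, in contrary directions. In bulk tissue, fewer cells of a type and less RNA per cell cannot be told apart. All 18 Purkinje markers had a positive interaction, with a median of 0.38 against -0.0071 over all genes. Of these, 8 had an unadjusted p under 0.05, where 1.57% of all genes did so in that direction. The level of a list is the mean log2 CPM of its genes, each relative to its own mean over the 12 libraries. For Purkinje markers the level was 0.24, 0.29 and 0.23 in the WT sedentary mice, 0.22, 0.19 and 0.15 in the WT exercise mice, -0.50, -0.25 and -0.35 in the SCA1 sedentary mice and 0.088, -0.07 and -0.22 in the SCA1 exercise mice. Every exercised WT mouse lay below every sedentary WT mouse, but only slightly, the nearest being 0.223 and 0.226. Every exercised SCA1 mouse lay above every sedentary SCA1 mouse. Most of the difference was in SCA1 mice, where 17 of 18 markers were higher with exercise and the median log2FC was 0.31, against -0.081 in WT mice. Even with exercise, SCA1 mice stayed below all WT mice. No marker passed the adjusted p in edgeR.

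Calb1, which encodes the calcium buffer calbindin, was counted at 634, 669 and 543 CPM in the WT sedentary mice, 587, 555 and 543 in the WT exercise mice, 315, 339 and 393 in the SCA1 sedentary mice and 466, 491 and 443 in the SCA1 exercise mice. Exercised SCA1 mice lay above sedentary SCA1 mice without overlap, and WT mice overlapped. The interaction was 0.55 ± 0.16 (SE). Here and in the other lists, the members named are mostly those with the lowest p, so their interactions describe that choice. Pcp4, a calmodulin-binding peptide, was at 25.7, 23.9 and 23.3 CPM in the WT sedentary mice, 21.1, 25 and 22.7 in the WT exercise mice, 10.4, 10.7 and 11.3 in the SCA1 sedentary mice and 18.02, 13.9 and 13.5 in the SCA1 exercise mice, and Ppp1r17, a phosphatase inhibitor of Purkinje cells, at 135, 133 and 97.5 CPM in the WT sedentary mice, 119.6, 107 and 108 in the WT exercise mice, 62.9, 70.8 and 74.9 in the SCA1 sedentary mice and 100.5, 102 and 88.4 in the SCA1 exercise mice. Their interactions were 0.57 ± 0.19 (SE) and 0.61 ± 0.18 (SE). Without mice 16 and 55 the interaction of Calb1 was 0.48, the list median 0.26, and 14 of 18 markers were positive. In the mice numbered 192 to 201 alone, which hold 1 sedentary WT and 1 exercised SCA1 mouse, the median was 0.13. SCA1 sedentary 16, the lowest mouse for this list, was also the one with the highest brainstem markers, and the part of tissue makeup was not tested.

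The mGluR1 and calcium signaling list, which shares 10 of its 28 genes with the Purkinje markers, had 22 positive interactions with a median of 0.19. Of these genes, 5 had an unadjusted p under 0.05. Car8, which tunes the IP3 receptor, was counted at 1175, 1275 and 1019.6 CPM in the WT sedentary mice, 1167, 1075 and 1074 in the WT exercise mice, 627, 724 and 730.2 in the SCA1 sedentary mice and 1027, 986 and 830.2 in the SCA1 exercise mice, an interaction of 0.52 ± 0.17 (SE). Itpka, an inositol phosphate kinase, was at 46.1, 43.9 and 47.1 CPM in the WT sedentary mice, 39.6, 38.6 and 37.1 in the WT exercise mice, 26.02, 33 and 25.9 in the SCA1 sedentary mice and 42.5, 29.6 and 30.9 in the SCA1 exercise mice, an interaction of 0.53 ± 0.20 (SE), without overlap in WT mice but with overlap in SCA1 mice. The list median was 0.053, near 0, once mice 16 and 55 were left out, 0.076 without mouse 16 alone and 0.11 without WT sedentary 117. Kcnma1, the large-conductance calcium-activated potassium channel, was counted at 381, 466 and 428 CPM in the WT sedentary mice, 447, 454 and 431 in the WT exercise mice, 309, 296 and 355 in the SCA1 sedentary mice and 428, 381 and 341 in the SCA1 exercise mice. SCA1 and WT mice each overlapped between sedentary and exercise, and the interaction was 0.20 ± 0.16 (SE).

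Other cortical cell types had smaller medians. Granule cell markers had 11 of 12 positive interactions (median 0.23) with 0 at an unadjusted p under 0.05, and their level was 0.27, 0.18 and 0.12 in the WT sedentary mice, 0.16, 0.10 and 0.064 in the WT exercise mice, -0.70, -0.05 and 0.07 in the SCA1 sedentary mice and -0.41, 0.15 and 0.042 in the SCA1 exercise mice. Mice 16 and 55 were the lowest in this list, and both genotypes overlapped. The median was 0.078 without mouse 16, 0.11 without 122, 0.42 without 195 and 0.10 in the mice numbered 192 to 201. With the share of read pairs in no gene as a covariate, an analysis added after seeing the data, it was 0.41, with 12 of 12 positive and 7 of 12 at an unadjusted p under 0.05. Bergmann glia and astrocyte markers had 13 of 13 positive (median 0.24), again with 0 at an unadjusted p under 0.05, and their level was lower in exercised WT mice without overlap. Their median was 0.14 without mouse 195, 0.15 with 8 of 13 positive without 55, 0.43 without 16 and 0.11 with 9 of 13 positive with that covariate. Inhibitory interneuron markers had 8 of 12 positive (median 0.04). Cbln1, a secreted synaptic protein of granule cells, was counted at 607, 529.6 and 481 CPM in the WT sedentary mice, 544, 449 and 498 in the WT exercise mice, 275, 385 and 381 in the SCA1 sedentary mice and 395, 446 and 395 in the SCA1 exercise mice, without overlap in SCA1 mice only. Slc17a7, the vesicular glutamate transporter of granule cells, was at 454, 432 and 430.1 CPM in the WT sedentary mice, 401, 367 and 380.1 in the WT exercise mice, 296, 416 and 362 in the SCA1 sedentary mice and 317, 371 and 391 in the SCA1 exercise mice, without overlap in WT mice only.

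**Figure D3:**
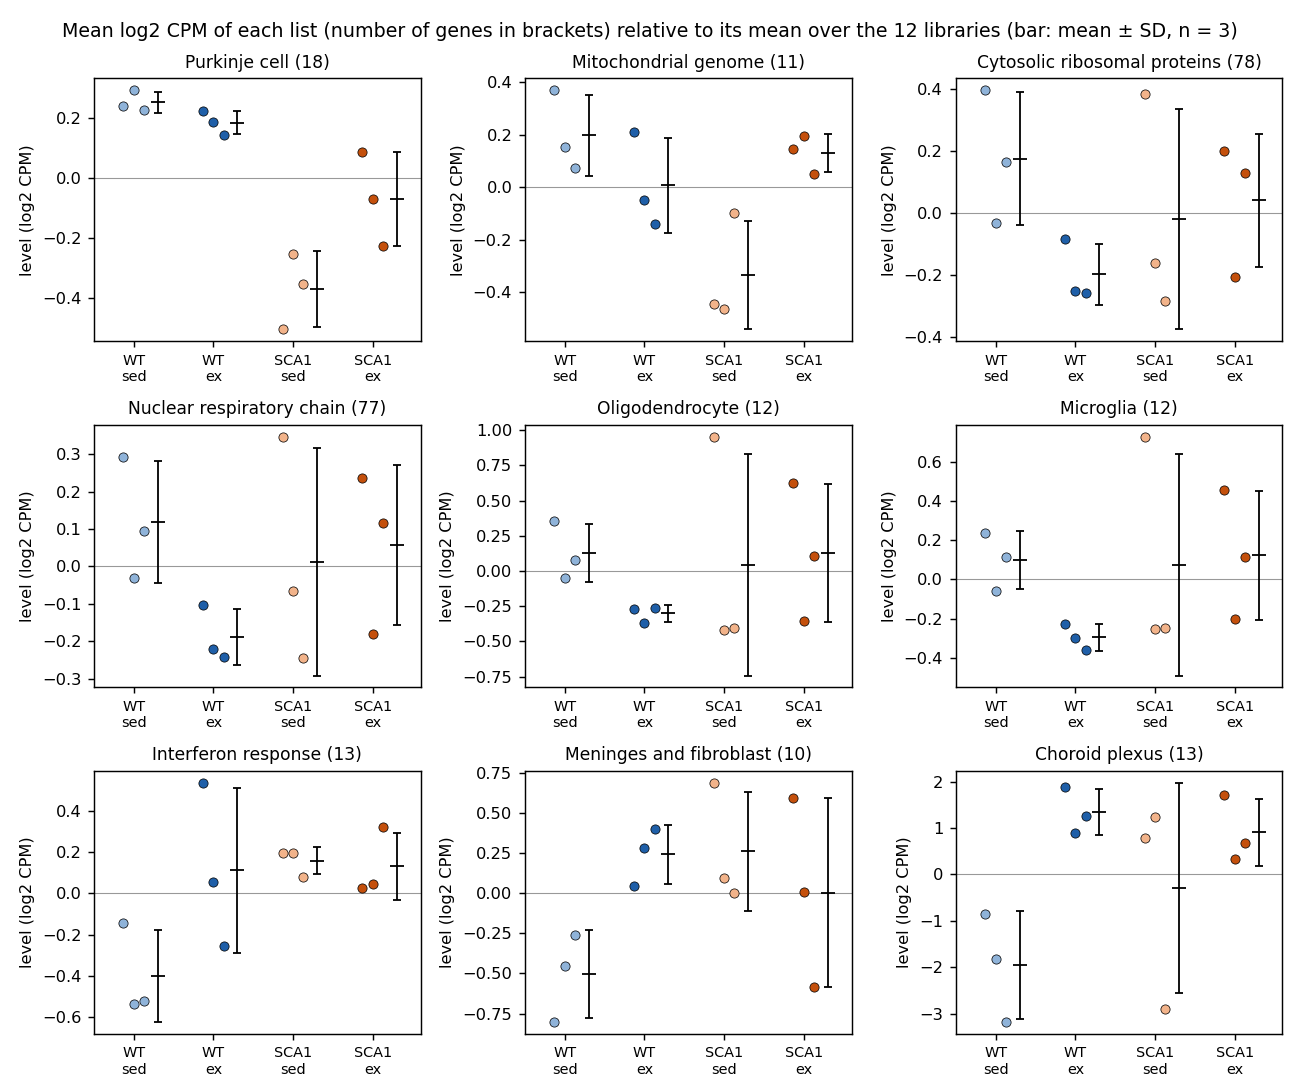
Level of 9 gene lists in each mouse (points), as mean log2 CPM of the members relative to their mean over the 12 libraries, with mean ± SD (bars, n = 3); the scale differs between panels. The Purkinje list is lower in exercised WT and higher in exercised SCA1 mice, the ribosomal, oligodendrocyte and microglia lists are lower and the meningeal and choroid plexus lists higher in exercised WT mice without overlap, with overlap in SCA1 mice.

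With all 12 libraries, the levels of the oligodendrocyte and microglia lists separated exercised from sedentary mice in WT only. Without mice 16 and 55, exercised SCA1 mice lay above sedentary SCA1 mice in both lists. All 12 oligodendrocyte markers were lower in exercised WT mice (median log2FC -0.45) and mixed in SCA1 mice (median 0.009), and all 12 interactions were positive (median 0.43), with 0 at an unadjusted p under 0.05. The level was 0.35, -0.05 and 0.078 in the WT sedentary mice, -0.27, -0.37 and -0.26 in the WT exercise mice, 0.95, -0.42 and -0.40 in the SCA1 sedentary mice and 0.62, -0.35 and 0.11 in the SCA1 exercise mice. WT mice separated without overlap, while SCA1 mice 16 and 55 were the highest of all 12. Mog, a protein of the myelin surface, was counted at 53.6, 36.8 and 46.1 CPM in the WT sedentary mice, 33.3, 28.3 and 29.7 in the WT exercise mice, 88.5, 27.9 and 30.5 in the SCA1 sedentary mice and 61.8, 33.3 and 49 in the SCA1 exercise mice. Microglia markers had 11 of 12 positive interactions (median 0.33). Of them 2, Aif1 and P2ry12, had an unadjusted p under 0.05, where 1.57% of all genes did so in that direction. P2ry12, the purine receptor of resting microglia, was at 6.47, 5.77 and 6.45 CPM in the WT sedentary mice, 4.64, 4.34 and 4.49 in the WT exercise mice, 7.03, 2.68 and 5.20 in the SCA1 sedentary mice and 5.75, 6.005 and 7.72 in the SCA1 exercise mice. Without mice 16 and 55 the medians were 0.68 for oligodendrocytes and 0.55 for microglia. The oligodendrocyte median was 0.995 without mouse 16 alone, 0.12 without 55, 0.17 without 194 and 0.21 without 195, and the microglia median 0.75, 0.18, 0.17 and 0.18, and 0.21 without 116. With the share of read pairs in no gene as a covariate, the medians were 0.11 and 0.12.

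Bmp4, a growth factor listed among genes of oligodendrocyte precursors, was counted at 0.884, 0.897 and 1.25 CPM in the WT sedentary mice, 1.88, 3.13 and 1.82 in the WT exercise mice, 1.98, 2.34 and 1.97 in the SCA1 sedentary mice and 2.66, 1.38 and 1.37 in the SCA1 exercise mice, higher in every exercised WT mouse, with an interaction of -1.39 ± 0.46 (SE). Precursor markers as a whole had 3 of 7 positive interactions and a median of -0.065.

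Choroid plexus markers were far higher in exercised than in sedentary WT mice. All 13 markers had a negative interaction (median -2.70) and 8 had an unadjusted p under 0.05, where 2.21% of all genes did so in that direction. All 13 were higher in exercised mice of both genotypes, by a median of 3.18 in WT and 0.48 in SCA1 mice. In SCA1 mice that rise rested on SCA1 sedentary 195. The list level was 0.77, 1.24 and -2.90 in the SCA1 sedentary mice and 1.72, 0.32 and 0.67 in the SCA1 exercise mice. SCA1 sedentary 16 and 194 thus lay above SCA1 exercise 122 and 198, and a shared direction is not shown. The median interaction was -3.22 without mouse 195 and -1.96 without 194. Summed over the markers, the level was 153 to 710.3 CPM in sedentary and 1480.3 to 3321 in exercised WT mice. In SCA1 mice it was 137 to 1938 CPM in sedentary and 1004 to 2841 in exercised mice. Tmem72, a transmembrane protein, was counted at 2.21, 0.769 and 0.264 CPM in the WT sedentary mice, 34.8, 17.4 and 22.8 in the WT exercise mice, 14.2, 23.7 and 0.529 in the SCA1 sedentary mice and 31.6, 9.59 and 10.7 in the SCA1 exercise mice. Both WT sedentary 192 and SCA1 sedentary 195 had almost none of it, and the other SCA1 sedentary mice lay within the range of the exercised mice. How much choroid plexus came with each dissected cerebellum is not stated in the labels, and its part was not tested.

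Meningeal and matrix genes lay higher in exercised WT mice. Of 10 meningeal and fibroblast markers, 9 had a negative interaction, and the list median was -1.10. An unadjusted p under 0.05 was reached by 7, all negative, where 2.21% of all genes did so in that direction. The median log2FC was 0.71 in WT and -0.29 in SCA1 mice. The level was -0.80, -0.46 and -0.26 in the WT sedentary mice, 0.042, 0.28 and 0.40 in the WT exercise mice, 0.69, 0.095 and 0.00086 in the SCA1 sedentary mice and 0.59, 0.0055 and -0.58 in the SCA1 exercise mice. Sedentary and exercised WT mice did not overlap, SCA1 mice did, and SCA1 exercise 198 lay below all other SCA1 mice. Igf2, a growth factor made by meninges and choroid plexus, was counted at 0.41, 0.427 and 0.717 CPM in the WT sedentary mice, 1.36, 1.34 and 1.78 in the WT exercise mice, 2.54, 2.63 and 1.30 in the SCA1 sedentary mice and 2.90, 1.17 and 0.514 in the SCA1 exercise mice, an interaction of -2.02 ± 0.74 (SE). Slc22a6, an organic anion transporter of the meninges, was at 2.68, 4.70 and 6.26 CPM in the WT sedentary mice, 7.27, 6.88 and 9.21 in the WT exercise mice, 7.70, 8.20 and 8.95 in the SCA1 sedentary mice and 9.05, 6.67 and 4.03 in the SCA1 exercise mice. Collagen chains, 3 of them shared with this list, had 36 of 43 negative interactions (median -0.43). Of these 9 had an unadjusted p under 0.05, against the same 2.21% of all genes. Col6a1 was counted at 5.65, 6.02 and 7.36 CPM in the WT sedentary mice, 9.42, 13.1 and 10.3 in the WT exercise mice, 10.9, 11.98 and 10.3 in the SCA1 sedentary mice and 12.1, 8.72 and 7.72 in the SCA1 exercise mice, an interaction of -1.002 ± 0.28 (SE). Without mice 16 and 55 the medians were -1.10 for meningeal markers and -0.60 for collagens, and the collagen median was -0.67 without mouse 55 alone and -0.21 with bands of mouse numbers as a covariate. Choroid plexus and meningeal markers were both lowest in the WT sedentary group, and their share in the tissue was not tested.

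Vessel, blood and ventricle lists completed the cell types. Pericyte and smooth muscle markers had 8 of 9 negative interactions (median -0.33) and endothelial markers 10 of 12 (median -0.12), with 0 at an unadjusted p under 0.05. The pericyte median was -0.15 without mouse 194, -0.14 with bands of mouse numbers as a covariate and -0.19 in the mice numbered 192 to 201, and the endothelial median was 0.021 without mouse 194. Ependymal markers had 3 of 5 negative (median -0.24). Erythrocyte genes had 5 of 5 positive (median 0.96), but their summed level varied within groups, at 23.4 to 74.3 CPM in sedentary and 15.5 to 35.2 in exercised WT mice, and 21.96 to 68.9 in sedentary and 19.8 to 81.3 in exercised SCA1 mice, and the median was 0.20 without mice 16 and 55 and 0.18 without WT sedentary 116. The 7 measured brainstem markers (median -2.85, or 1.89 without mouse 16 and -6.95 without 55) were low outside mice 16 and 55, with a summed level of 67.7 and 41.6 CPM in those mice and 5.56 CPM or less in the others, and forebrain and midbrain markers had 3 of 5 positive (median 0.09).

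Housekeeping genes of protein synthesis and respiration had nearly uniform positive interactions. All 78 measured cytosolic ribosomal protein genes were positive (median 0.43), all 78 were lower in exercised WT mice (median log2FC -0.39), and 47 were higher in exercised SCA1 mice (median 0.041). In the same way 76 of 77 nuclear genes of the respiratory chain (median 0.34) and 37 of 37 proteasome genes (median 0.23) were positive. An unadjusted p under 0.05 was reached by 13, 13 and 2 genes, all positive, where 1.57% of all genes did so in that direction. Without mouse 16 the medians were 0.67, 0.55 and 0.44, and the proteasome median was 0.11 without 195, 0.15 without 55 and 0.15 without 116. The ribosomal level was 0.40, -0.032 and 0.16 in the WT sedentary mice, -0.083, -0.25 and -0.26 in the WT exercise mice, 0.38, -0.16 and -0.28 in the SCA1 sedentary mice and 0.20, -0.20 and 0.13 in the SCA1 exercise mice. WT mice separated without overlap and SCA1 mice did not. Rps25, of the small ribosomal subunit, was counted at 95.5, 69.4 and 76.98 CPM in the WT sedentary mice, 67.6, 58.8 and 58.9 in the WT exercise mice, 71.9, 52.1 and 59.3 in the SCA1 sedentary mice and 75.5, 63.8 and 80.9 in the SCA1 exercise mice, an interaction of 0.65 ± 0.21 (SE). Ndufb1, of complex I, was at 7.98, 6.28 and 7.28 CPM in the WT sedentary mice, 4.95, 4.38 and 5.86 in the WT exercise mice, 5.97, 5.10 and 4.67 in the SCA1 sedentary mice and 7.38, 5.17 and 8.53 in the SCA1 exercise mice, an interaction of 0.92 ± 0.30 (SE). Ribosomal protein genes have many processed pseudogenes, between which reads could be split.

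These lists moved with a property of the libraries. The share of read pairs in no gene averaged 49.4% ± 3.0 in sedentary and 54.7% ± 3.3 in exercised WT mice, and 50.2% ± 9.9 in sedentary and 50.5% ± 5.6 in exercised SCA1 mice (SD, n = 3). Over the 12 libraries, the ribosomal level had a Pearson r of -0.90 with that share (permutation p = 5e-05, adjusted 6.7e-05) and a Spearman rho of -0.95 (permutation p = 2e-05, adjusted 4e-05). The respiratory level had r = -0.93 and rho = -0.92 (permutation p = 1e-05 and 4e-05, adjusted 2e-05 and 5.3e-05), and the proteasome level r = -0.95 and rho = -0.95 (permutation p = 1e-05 for each, the smallest 100000 resamples can give, adjusted 2e-05 and 4e-05). Purkinje markers had r = 0.14 and rho = -0.18 (permutation p = 0.66 and 0.57, adjusted the same). For that list every SCA1 library lay below every WT library. The value over both genotypes therefore cannot show whether the level follows the share within a genotype, which was not tested. Without mice 16 and 55, the farthest from the median share, r was -0.91, -0.91, -0.90 and -0.47. These were the 4 relations computed, and the tests were two-sided. With the share as a covariate, an analysis added after seeing the data, the median interactions were 0.25, 0.21, 0.11 and 0.36, and 76 of 78, 70 of 77, 32 of 37 and 17 of 18 genes were positive.

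**Figure D4:**
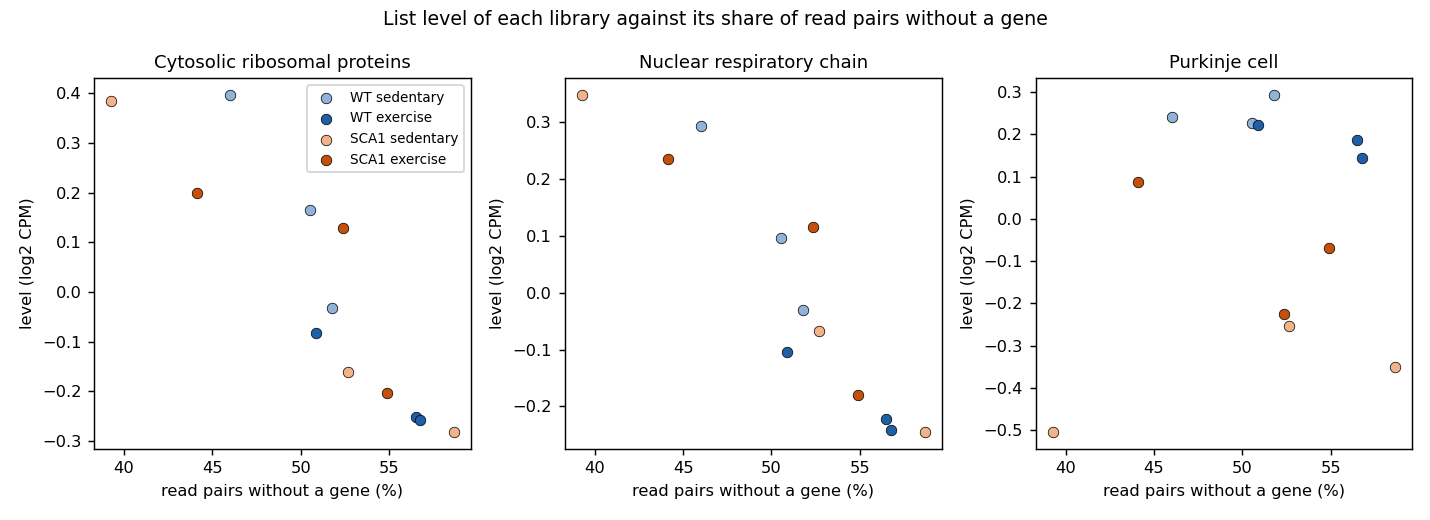
Level of the ribosomal, respiratory and Purkinje lists (log2 CPM relative to the mean, y axis) against the percentage of read pairs in no gene (x axis), 1 point per library, colored by group. Ribosomal and respiratory levels decline as the share grows, whereas for the Purkinje list every SCA1 library lies below every WT library.

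In the mitochondrial genome, by contrast with nuclear respiratory genes, it was SCA1 mice that separated. Of its 11 measured coding genes, 10 were positive (median 0.57). An unadjusted p under 0.05 was reached by 6, all positive, where 1.57% of all genes did so in that direction. SCA1 mice did not overlap and WT mice did, with levels of 0.37, 0.15 and 0.073 in the WT sedentary mice, 0.21, -0.047 and -0.14 in the WT exercise mice, -0.44, -0.46 and -0.096 in the SCA1 sedentary mice and 0.14, 0.19 and 0.05 in the SCA1 exercise mice. The median log2FC was -0.17 in WT and 0.40 in SCA1 mice. mt-Nd1, a complex I subunit, was counted at 2322, 1949.8 and 1844 CPM in the WT sedentary mice, 1874, 1546 and 1564 in the WT exercise mice, 1235, 1135 and 1546 in the SCA1 sedentary mice and 1778, 1714 and 1690.1 in the SCA1 exercise mice, an interaction of 0.70 ± 0.20 (SE). mt-Nd2 was at 1732, 1556 and 1284 CPM in the WT sedentary mice, 1461, 1319.7 and 1297 in the WT exercise mice, 782, 853 and 1209 in the SCA1 sedentary mice and 1397, 1449.5 and 1259.8 in the SCA1 exercise mice, an interaction of 0.70 ± 0.23 (SE). The 3 exercised SCA1 mice were close together in both genes, above all sedentary SCA1 mice. mt-Co3 met the opposite-response rule, with an interaction of 1.53 ± 0.40 (SE), but was counted at only 0.722 to 1.93 CPM. Nuclear copies of mitochondrial DNA can take reads from these genes. With the share of read pairs in no gene as a covariate the list median was 0.52, and in the mice numbered 192 to 201 it was 0.26.

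All 13 interferon response genes had a negative interaction, with a median of -0.50. An unadjusted p under 0.05 was reached by 3, where 2.21% of all genes did so in that direction. All 13 were higher in exercised WT mice (median log2FC 0.74), and 7 of 13 were higher in exercised SCA1 mice (median 0.0025). The level was -0.14, -0.54 and -0.52 in the WT sedentary mice, 0.54, 0.055 and -0.26 in the WT exercise mice, 0.20, 0.20 and 0.082 in the SCA1 sedentary mice and 0.024, 0.047 and 0.32 in the SCA1 exercise mice. The lowest values were those of WT sedentary 117 and 192, and WT exercise 201 lay among the sedentary WT mice, so the list did not separate. Without WT exercise 121, the highest, the list median was -0.27, and without WT sedentary 116, WT exercise 201 or SCA1 exercise 198 it was -0.79, -0.80 and -0.82. Ifit1, an RNA-binding effector of the pathway, was counted at 1.58, 1.97 and 1.85 CPM in the WT sedentary mice, 4.86, 3.42 and 1.66 in the WT exercise mice, 3.67, 2.93 and 3.51 in the SCA1 sedentary mice and 3.29, 2.92 and 2.74 in the SCA1 exercise mice. Irf9, a transcription factor of interferon signaling, was at 12.3, 12.1 and 13.7 CPM in the WT sedentary mice, 16.1, 13.5 and 13.6 in the WT exercise mice, 14.9, 21.96 and 17.4 in the SCA1 sedentary mice and 13.5, 13.9 and 16.2 in the SCA1 exercise mice, an interaction of -0.50 ± 0.22 (SE). Oas1a, at 0.159 to 0.849 CPM, had an interaction of -1.60 ± 0.64 (SE). Rnf213, Parp14 and Trim30a are not in this list and add to it only as genes picked by their own values.

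Activity-induced genes, which neurons switch on within minutes of firing, had 11 of 15 negative interactions with a median of -0.63. An unadjusted p under 0.05 was reached by 4, all negative, where 2.21% of all genes did so in that direction. The median log2FC was -0.085 in WT and -0.70 in SCA1 mice. Nr4a2, an orphan nuclear receptor, was counted at 8.11, 9.91 and 7.02 CPM in the WT sedentary mice, 20.6, 12.02 and 8.97 in the WT exercise mice, 22.3, 15.6 and 9.14 in the SCA1 sedentary mice and 12.6, 7.67 and 8.75 in the SCA1 exercise mice. The interaction was -1.43 ± 0.49 (SE), and sedentary and exercised mice overlapped in both genotypes. Fos, a subunit of the transcription factor AP-1, was at 2.11, 5.64 and 4.11 CPM in the WT sedentary mice, 15.7, 5.22 and 2.30 in the WT exercise mice, 45.9, 15.5 and 2.55 in the SCA1 sedentary mice and 7.06, 3.002 and 7.07 in the SCA1 exercise mice. SCA1 sedentary 16 was the highest for Fos and Nr4a2, and without mice 16 and 55 their interactions were -1.84 and -1.34, against -2.87 and -1.43 with them. The list median was -0.40 without mouse 16, -0.97 without 195 and -0.09 in the mice numbered 192 to 201.

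Hormone and clock lists had small medians: 10 of 16 glucocorticoid response genes were positive (median 0.065) and 12 of 17 circadian clock genes negative (median -0.059). Per1, a clock gene that also responds to glucocorticoids, was counted at 112, 122 and 132 CPM in the WT sedentary mice, 163, 168 and 137 in the WT exercise mice, 108, 183 and 178 in the SCA1 sedentary mice and 139, 136 and 129.9 in the SCA1 exercise mice, an interaction of -0.57 ± 0.24 (SE), and did not overlap in WT mice. Fkbp5, a glucocorticoid-induced chaperone, had an interaction of -0.77 ± 0.35 (SE). Growth factors and receptors had 12 of 17 negative (median -0.10), heat shock chaperones 10 of 13 positive (median 0.15, or -0.07 without mouse 195 and 0.39 without 16) and cholesterol synthesis genes 11 of 17 positive (median 0.038), of which Lss met the opposite-response rule in the negative direction. Nuclear long noncoding RNAs had 7 of 8 negative (median -0.087). Meg3, an imprinted noncoding RNA, was at 1419, 1934 and 2112 CPM in the WT sedentary mice, 2048, 2609.7 and 2563 in the WT exercise mice, 2514, 3632 and 3359 in the SCA1 sedentary mice and 2614, 2534 and 2489 in the SCA1 exercise mice, an interaction of -0.72 ± 0.25 (SE).

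Genes that earlier work on SCA1 or exercise singled out did not meet the opposite-response rule. Cic, which encodes Capicua, was counted at 267, 281 and 321 CPM in the WT sedentary mice, 293, 317 and 318 in the WT exercise mice, 291, 407 and 319.5 in the SCA1 sedentary mice and 296, 295 and 290.0 in the SCA1 exercise mice, and its interaction was -0.30 ± 0.17 (SE). SCA1 sedentary 194 was the highest, and both genotypes overlapped. Bdnf, a neurotrophin, was at 14.7, 16.2 and 14.1 CPM in the WT sedentary mice, 19.4, 16.3 and 13.5 in the WT exercise mice, 17.2, 11.1 and 13.5 in the SCA1 sedentary mice and 13.5, 14.6 and 14.4 in the SCA1 exercise mice, and Egf, a growth factor, at 4.61, 6.75 and 5.66 CPM in the WT sedentary mice, 5.43, 5.59 and 4.93 in the WT exercise mice, 3.07, 4.80 and 6.35 in the SCA1 sedentary mice and 3.81, 4.92 and 4.93 in the SCA1 exercise mice. Their interactions were -0.10 ± 0.25 (SE) and 0.038 ± 0.36 (SE), within 1 SE of 0. Ataxin-1 and its partners had 8 of 14 positive interactions (median 0.028), and Capicua targets 7 of 10 (median 0.076). Splicing regulators were split 23 to 23 (median -0.00053), potassium channels 39 to 40 (median -0.00068), sodium and calcium channels 10 to 13 (median -0.049) and ionotropic and metabotropic receptors 17 to 20 (median -0.02) between positive and negative. Transcript levels say nothing of the splicing of these genes.

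**Figure D5:**
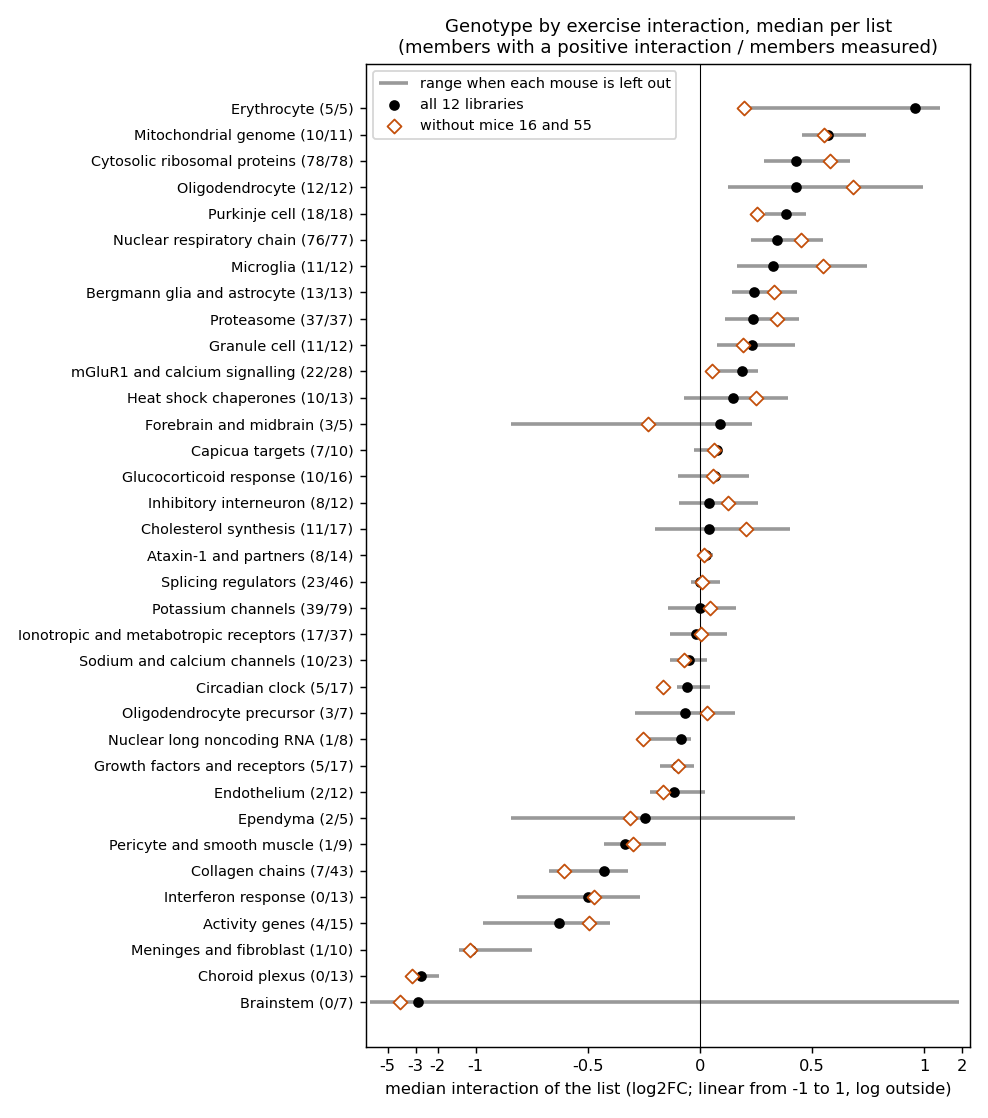
Median interaction (log2FC, x axis, linear between -1 and 1 and logarithmic beyond) of each gene list, with the number of positive members of those measured in brackets; black points use all 12 libraries, diamonds leave out mice 16 and 55, and gray bars span the medians when each mouse is left out in turn. Purkinje, mitochondrial, ribosomal, respiratory, proteasome, oligodendrocyte and microglia lists stay above 0, and interferon, activity, collagen, meningeal and choroid plexus lists below 0, in all of these.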

How the data were processed

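RNA from the cerebellum of 12 mice in 4 groups of 3 was sequenced by the authors after ribosomal RNA removal, as directional paired libraries. The submitters' processing notes name FastQC 0.11.9, fastp 0.24.0 and STAR 2.7.10a, and the methods name another FastQC release. Per the methods, the authors trimmed read files with much adapter sequence and aligned reads to GRCm39, and what was deposited is, for each gene, the raw count of read pairs; the annotation release is not given in the sources used here. The reverse-strand counts of 56941 genes were used, because a directional kit puts most reads there (5.54% to 6.01% of the counted pairs of both strands lay on the other strand), and unstranded counts as an alternative. The 4 summary lines of each file, which hold unmapped and multimapped pairs and those in no gene or several, stayed out of library sizes and tests. Gene names and positions come from GENCODE M39, which matched 56323 genes by identifier.

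Counts were fitted in edgeR 4.0.16 (R 4.3.3) with TMM factors, filterByExpr, a mean per group over all 12 libraries and the quasi-likelihood test, leaving 20341 genes. The interaction is (SCA1 exercise - SCA1 sedentary) - (WT exercise - WT sedentary). A gene was called where its p, adjusted by Benjamini-Hochberg, was under 0.05 and its log2FC exceeded 0.5 in size. CPM are counts scaled to 1e+06 per library with TMM factors, log2 CPM use a prior count of 2, and the SE is the log2FC divided by the root of the F statistic. Lists are described by counts, medians and levels, with no test. DESeq2 1.42.0, limma 3.58.1 (voom with sample weights), RLE factors, other count filters, sex and mouse number covariates, and leaving out mice were alternatives, and the fit was tested on simulated data.

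The members, lists and rules were chosen with earlier results of these data known. Named were Atxn1, up to 12 coding opposite-response genes per direction of the lowest p among those averaging 1 or more in log2 CPM, up to 4 members per list with the lowest p, genes called by edgeR or DESeq2, Calb1, Kcnma1, Bdnf, Egf and Cic, and the sex genes; the text gives those its results turn on, and some items are not reported here. Mice of a group differed by a chi-square of 5.5 per degree of freedom or more, so no library was counted as a repeat of another. The labels number separate mice, and each p-value measures the spread between them.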

Additional observations from a re-analysis of the deposited data

Results flagged for a closer look

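The Purkinje cell list was singled out because its level moved in contrary directions in the genotypes. Every exercised WT mouse lay below every sedentary WT mouse, and every exercised SCA1 mouse lay above every sedentary SCA1 mouse. The separation in WT mice was slight, the nearest pair being at 0.226 and 0.223, and 6 of 18 markers were higher with exercise there. Without mice 16 and 55, other lists separated in this way too. The level of the Purkinje list differed by 0.37 on the log2 scale, as the SCA1 response minus the WT response. The difference was not tested, since the list was chosen with earlier results of these data known.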

How the results depend on the processing

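The interaction gave 0 calls under 21 alternatives and calls under 4. DESeq2 called 2 genes, limma voom 14, the mice numbered 192 to 201 alone 1, and leaving out 1 mouse 0 to 1, the 1 without SCA1 sedentary 195. Opposite responses, 34 and 19 genes with all mice, numbered 36 to 412 and 21 to 221 when 1 mouse was left out, the highest counts in both directions without SCA1 sedentary 16. They numbered 426 and 360 without mice 16 and 55 and 747 and 580 in the mice numbered 192 to 201, where fewer mice per group make separation easier by construction. Unstranded counts gave 38 in the second direction. The exercise response of WT mice, with 0 calls in edgeR, gave 65 with DESeq2, 92 with limma voom, 45 with every gene of at least 1 count, 33 with bands of mouse numbers as a covariate, 4 in mice 192 to 201, 64 without mice 16 and 55, 141 with the share of read pairs in no gene as a covariate, a setting chosen after seeing the data, and 0 to 19 with 1 mouse left out, the highest without SCA1 sedentary 195 and 1 without WT exercise 121. The response of SCA1 mice gave 1 call with DESeq2 and 1 in mice 192 to 201. The cause of these differences was not tested.

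List medians kept their value within the spread of mice in 784 comparisons of a list with an alternative and moved further in 55. In mice 192 to 201 alone they were 0.13 for Purkinje, 0.73 for microglia, -0.92 for ependyma, 0.018 for mGluR1 and calcium signaling, -0.048 for ataxin-1 partner, -0.08963 for activity genes, -0.058 for splicing regulators, 0.80 for ribosomal protein, 0.59 for respiratory chain, 0.26 for mitochondrial genome and 0.42 for proteasome. Without mice 16 and 55 they were 0.26 for Purkinje, 0.053 for mGluR1 and calcium signaling and -0.26 for nuclear noncoding RNA. With limma voom they were 0.20 for Purkinje, -0.66 for forebrain and midbrain, 0.088 for mGluR1 and calcium signaling, -0.002427 for ataxin-1 partner, -0.29 for nuclear noncoding RNA and -0.24 for sodium and calcium channels. With bands of mouse numbers they were -0.011 for ataxin-1 partner and 0.096 for nuclear noncoding RNA, with genes of at least 10 counts in every library 0.005349 for ataxin-1 partner, and with the share of read pairs in no gene as a covariate 0.059 for circadian clock and 0.085 for splicing regulators. With each mouse left out in turn, medians ran from -0.091 to 0.26 for inhibitory interneuron, 0.12 to 0.99 for oligodendrocyte, 0.17 to 0.75 for microglia, -0.22 to 0.021 for endothelium, -0.84 to 0.42 for ependyma, 0.18 to 1.33 for erythrocyte, -6.95 to 1.89 for brainstem, -0.84 to 0.23 for forebrain and midbrain. They ran from 0.076 to 0.26 for mGluR1 and calcium signaling, -0.001682 to 0.057 for ataxin-1 partner, -0.025 to 0.097 for Capicua targets, -0.18 to -0.028 for growth factors and receptors, -0.0699 to 0.39 for heat shock chaperones, -0.20 to 0.40 for cholesterol synthesis. They ran from -0.82 to -0.27 for interferon response, -0.03996 to 0.091 for splicing regulators, -0.26 to -0.039 for nuclear noncoding RNA, 0.29 to 0.67 for ribosomal protein, 0.45 to 0.74 for mitochondrial genome and 0.11 to 0.44 for proteasome. Among named genes, Zfp185 passed the threshold with DESeq2 and limma voom and Gm15383 with DESeq2. Bdnf, -0.10 with all mice, was 0.18 with limma voom, 0.16 in mice 192 to 201 and 0.11 without mice 16 and 55, and Egf was -0.068 and -0.095 in the last 2. Left out 1 at a time, mice moved Atxn1 from -0.20 to 0.013, Bdnf from -0.23 to 0.081 and Egf from -0.20 to 0.30. No paired analysis was possible because every mouse has its own number in the labels.

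With 3 mice per group, an interaction about as small as the SE beside it was not detectable. Interactions several times their SE also missed the threshold in edgeR. Gm15383, at -2.06 ± 0.36 (SE), had the lowest adjusted p of its quasi-likelihood test, 0.882. Genes near 1 CPM, as Igf2, Bmp4 and Oas1a, rest on few reads. A gene that missed the threshold is not shown to respond alike in both genotypes.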
